A study of Schizosaccharomyces pombe with 39 samples.

Results

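The cytosolic ribosomal protein genes of fission yeast (Schizosaccharomyces pombe) were followed through the loss and return of Epe1. Members were the rows whose name began with rpl or rps followed by a digit. This gave 128 of the 6745 gene rows of the series, namely 49 genes of the small subunit (rps), 70 genes of the large subunit (rpl) and 9 rows for antisense RNAs named after such a gene. The 119 rps and rpl rows are called ribosomal protein genes, and RefSeq names a 40S or 60S ribosomal protein as the product of all of them but rpl44 and rpl701. Those 2 have the products of an L28e family domain protein and of an L7-like subunit of RNase MRP, and stayed in by their names. RefSeq lists 131 nuclear genes with such symbols, and 12 of them were not analysed here.

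Polyadenylated RNA was sequenced from 39 libraries in 13 groups of 3, all from strains lacking mst2, which encodes a histone acetyltransferase. Epe1 is a JmjC-domain protein that opposes heterochromatin. In the degron strain, epe1 carried a 3xFLAG tag and an auxin-inducible degron (AID) and was driven by nmt81, a promoter that thiamine represses; skp1-OsTIR1 and skp1-AtTIR1-2NLS, the adaptors that direct AID proteins to degradation, were driven by adh15 promoters. Depletion was by TN, thiamine with 1-naphthaleneacetic acid, an auxin. The groups were mst2D epe1D double deletion cells labelled biological replicates 1 and 2; degron cells depleted for 24, 48, 72, 96 and 120 h and their untreated 0 h cells (the time course); and, in a second experiment on the same strain (the memory experiment), cells depleted for 120 h, cells recovered without TN for 24 or 48 h after 120 h of depletion, cells depleted a second time for 24 h after 24 h of recovery, and untreated 0 h cells. Titles name the second depletion although its treatment label reads as untreated, and the titles were followed. No strain without the degron received TN, so the agents and the loss of Epe1 cannot be told apart. The labels do not state that libraries of a group came from separate cultures, so p-values measure the spread between these libraries, which may be technical. The 3 experiments were deposited as separate tables, and levels were normalised within each table.

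Ribosomal proteins assemble with ribosomal RNA into the small subunit, which decodes mRNA, and the large subunit, which forms peptide bonds. Their mRNAs are among the most abundant in growing yeast and are adjusted together with nutrients, growth rate and stress, in part through TOR signalling. Most fission yeast ribosomal proteins are encoded by 2 or 3 similar genes at separate places in the genome. Many of their promoters hold HomolD, a box that takes the place of a TATA box, or HomolE, a box that raises its activity.

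Both boxes were searched as exact letters on both strands from 250 bases before to 50 bases after the RefSeq start of each gene (CAGTCACA or TGTGACTG for HomolD, and a direct repeat of ACCCT or of AGGGT for HomolE; neither box contains the other). HomolD was found at 76 of 119 ribosomal protein genes (63.9%), against 2.68% of 5112 promoters of all protein-coding genes. HomolE was found at 33 of 119 (27.7%), against 1.25% of all. Small subunit genes held HomolD at 30 of 49 and HomolE at 17 of 49, and large subunit genes at 46 of 70 and 16 of 70. The HomolD box began at a median of 51 bases before the start, within a range of 16 to 148. The 6 stretches below belong to the genes on which the results turn: both uL16 genes, both uS11 genes, the uL2 gene rpl802 and the eS30 gene rps3001. Each holds the 120 bases before the RefSeq gene start (build ASM294v3, plus strand, 5′ to 3′), with a HomolD or HomolE box in capitals; the deposited tables, in build ASM294v2, place the gene start inside the stretch or before it.
rpl1001 (II:2081361-2081480): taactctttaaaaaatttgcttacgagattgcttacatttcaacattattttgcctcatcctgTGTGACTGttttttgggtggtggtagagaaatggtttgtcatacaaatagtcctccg
rpl1002 (I:3744026-3744145): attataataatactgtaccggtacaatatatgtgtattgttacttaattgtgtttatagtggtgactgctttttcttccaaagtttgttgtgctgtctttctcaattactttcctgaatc
rps1401 (I:3436124-3436243): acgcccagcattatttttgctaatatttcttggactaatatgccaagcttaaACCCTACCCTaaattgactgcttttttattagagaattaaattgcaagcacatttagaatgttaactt
rps1402 (II:1792243-1792362): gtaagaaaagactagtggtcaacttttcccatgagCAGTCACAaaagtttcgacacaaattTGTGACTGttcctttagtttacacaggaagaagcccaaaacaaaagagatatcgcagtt
rpl802 (II:1726545-1726664): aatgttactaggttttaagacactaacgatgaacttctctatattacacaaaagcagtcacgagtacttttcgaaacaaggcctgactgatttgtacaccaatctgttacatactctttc
rps3001 (I:4890200-4890319): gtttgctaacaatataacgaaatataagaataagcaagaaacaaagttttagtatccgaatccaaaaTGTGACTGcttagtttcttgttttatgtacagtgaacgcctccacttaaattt
By exact letters the copies of a pair differed in their boxes: rpl1001 held HomolD and rpl1002 held neither box, while rps1402 held HomolD on both strands and rps1401 held HomolE alone. The search allowed no mismatch. The stretch of rpl1002 holds ggtgactg and that of rpl802 cagtcacg, which differ from TGTGACTG and CAGTCACA at an end letter. Whether these act as HomolD was not tested.

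Libraries held 20733636 to 27900659 counts in the deletion table, 20347886 to 26976973 in the time course and 14781022 to 21626064 in the memory experiment. The epe1 row held 104.5 to 137.8 CPM (counts-per-million, scaled to the edgeR TMM-adjusted library total) in the deletion libraries, 166.3 to 325.6 in depleted and 313.2 to 337.3 in untreated time course libraries; its mRNA does not measure the degraded protein, and which part was deleted is not given in the labels. Ribosomal protein genes had a median GC content of 44.2% (34.3 to 51.8) and a median exon length of 637 bases, against 36.8% and 1540 bases for 6498 other genes. A trend of counts with GC content therefore reaches them, and few other genes lie in their range: 109 genes of the time course, 84 of the deletion table and 81 of the memory table were at or above their median. Across the other genes, the Spearman correlation of a library's log2 deviation with GC content lay between -0.0443 and 0.0363 in the deletions and between -0.134 and 0.137 in the time course, but between -0.59 and 0.672 in the memory experiment. The same correlation with exon length lay between -0.181 and 0.159 in the deletions and between -0.353 and 0.289 in the memory experiment. In the time course it lay between -0.265 and 0.232. There it was -0.0403, 0.00151 and 0.12 at 0 h, and -0.233, -0.265 and -0.133 at 48 h. Replicate 2 of the second depletion stood apart, with the highest correlation with GC content, the fewest counts (14781022) and a TMM factor of 0.629. The memory table also held fewer members: 95 ribosomal protein genes, against 118 in each of the other tables. The 24 time course members missing from it had a median of 2276 CPM per kilobase at 0 h, against 1630 for the 94 present, so the memory values describe the less abundant part.

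Reads of overlapping genes could not be separated by strand: how strand was used in counting is not given in the sources used here. Of the 119 genes, 51 overlapped another row and 26 did so over at least 50% of their length. The 9 antisense rows held 87.5% to 148% of the counts of their partner genes, and in the time course they moved with them (8 of 9 lower after 24 h, median log2 change -0.52). Values of rps1401 (overlapped by aar2), rpl1002, rpl102 and rps2601 (by their own antisense rows), rps1102 (by SPNCRNA.1015), rps2802 (by trs130) and rps3002 (by SPBC19G7.04) are therefore uncertain, since the partner row held 99.5% to 120% as many counts.

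Ribosomal protein mRNAs took 13.3% ± 0.73 (SD, n = 3) of all counts in untreated time course cells, 10.4% ± 0.44 and 9.75% ± 1.20 after 24 and 48 h of depletion, 11.6% ± 0.73 and 11.8% ± 1.08 after 72 and 96 h, and 13.02% ± 0.93 after 120 h. The share was lowest at 48 h. By 120 h its mean lay within the range of the untreated libraries (12.55% to 13.99%), while single 120 h libraries held 12.19% to 14.03%. It was 12.3% ± 0.43 and 12.4% ± 0.61 in the deletion cells of biological replicates 1 and 2. In the memory experiment it was 10.2% ± 0.23 at 0 h, 10.7% ± 0.47 after 120 h of depletion, 11.3% ± 0.71 and 11.4% ± 1.63 after 24 and 48 h of recovery, and 13.7% ± 3.66 in the second depletion, whose 3 libraries held 10.7%, 17.8% and 12.6%.

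**Figure D1:**
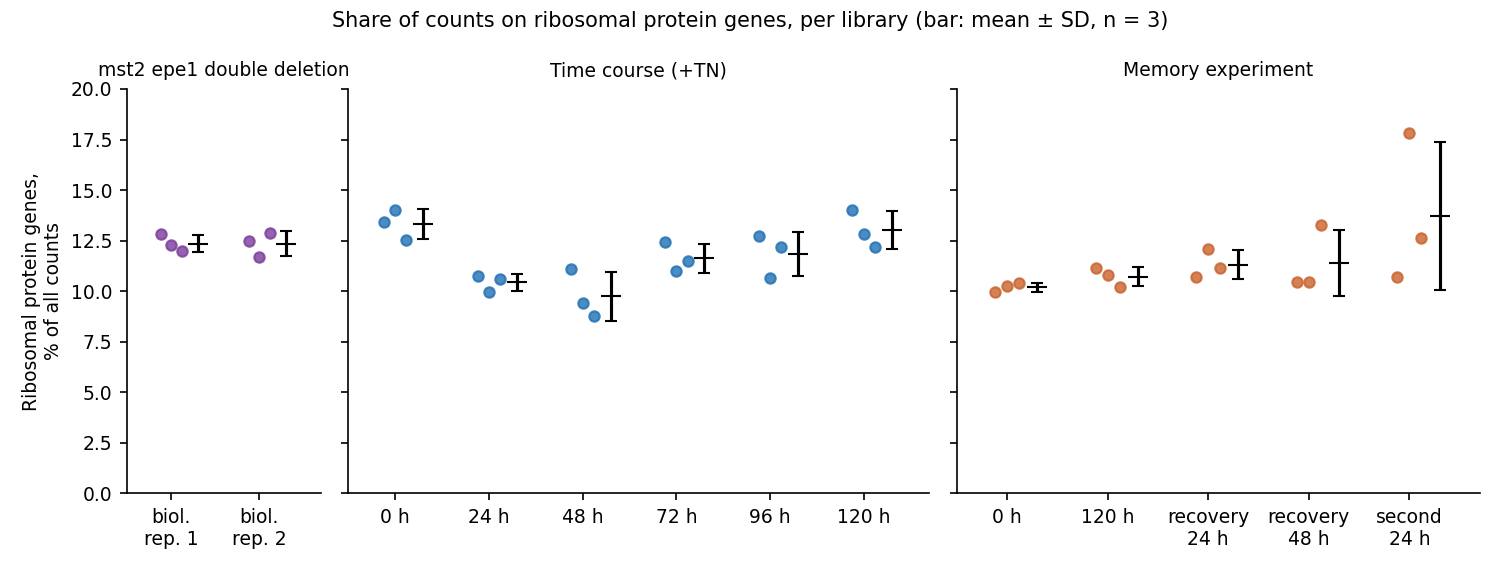
Share of all counts (percent) on ribosomal protein genes, 1 point per library, with the mean and SD of each group; panels separate the deletion, time course and memory tables. Time course libraries are lowest at 24 h and 48 h (means 10.4% and 9.75%, against 13.3% at 0 h), and replicate 2 of the second depletion (17.8%) lies above every other library.

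At 24 h of depletion the ribosomal protein genes were lower nearly as a whole. Of 118 tested, 101 passed an adjusted p of 0.05 as lower and 0 as higher (edgeR quasi-likelihood test with Benjamini-Hochberg adjustment over all genes), where 17.2% of all 6664 genes tested were called lower and 20.5% higher. All 118 had a log2 change below 0, with a median of -0.44 and a range of -0.83 to -0.03, while the median over all genes was 0.02. For 104 of the 118, every 24 h library lay below every 0 h library, which was the case for 25.1% of all genes. The decline involved both subunits, with 42 of 49 small subunit genes lower (median -0.42) and 59 of 69 large subunit genes lower (median -0.45). Without replicate 2 of the 0 h group 67 genes were called, and the median change stayed between -0.49 and -0.39 whichever library was left out. With offsets corrected for both GC content and length the median was -0.69.

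The largest falls at 24 h belonged to rpl1002, rpl2502, rpl802 and rps1902. Both rpl1001 and rpl1002 encode uL16, which joins the large subunit late and lies near the peptidyl transferase centre. rpl1002 (SPAP7G5.05, I:3744043-3744906) had 540.6, 467 and 562.9 CPM at 24 h, against 961.1, 1017 and 815.8 CPM at 0 h. The groups did not overlap, and the log2 change was -0.83 ± 0.15 (SE; edgeR adjusted p = 5.86e-04); its antisense row, with which it shares reads, fell by as much (-0.83). rpl2502 (SPBC4F6.04, II:2690601-2691722) encodes uL23, at the exit of the peptide tunnel. It had 423.2, 396.2 and 443.4 CPM at 24 h, against 692.7, 688.5 and 645.8 CPM at 0 h (-0.68 ± 0.099, edgeR adjusted p = 1.21e-04). rpl802 (SPBC2F12.07c, II:1726632-1727577), a gene for uL2 of the peptidyl transferase region, had 447.8, 470.4 and 484.3 CPM at 24 h, against 723.4, 785.2 and 718.4 CPM at 0 h (-0.67 ± 0.12, edgeR adjusted p = 9.15e-04). rps1902 (SPBC649.02, II:535304-536041) encodes eS19, which is needed to mature the small subunit. Its 24 h libraries held 362.5, 351.5 and 346.6 CPM, against 558.9, 598 and 533.5 CPM at 0 h (-0.67 ± 0.11, edgeR adjusted p = 3.58e-04). In all 4 genes the highest 24 h library was below the lowest 0 h library, and rpl802 and rps1902 overlap no other row.

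The smallest changes at 24 h belonged to rps1401, rpl35b and rpl13, none of which passed the test. rps1401 (SPAC3H5.05c, I:3436186-3436825), 1 of the genes for uS11 of the subunit platform, had 297.8, 362.5 and 295.1 CPM at 24 h, against 332, 340.9 and 302.4 CPM at 0 h. These groups overlapped (-0.03 ± 0.12, edgeR adjusted p = 0.867), though with GC- and length-corrected offsets the change was -0.48 (edgeR adjusted p = 0.00146). rpl35b, a gene for eL33, had 647.9, 605.1 and 702.1 CPM at 24 h, against 680.6, 707.9 and 744 CPM at 0 h, with the highest 24 h library inside the 0 h range. rpl13, the sole gene for eL13 among the members, had 1996, 2014 and 2107 CPM at 24 h, against 2475, 2447 and 2136 CPM at 0 h; its groups did not overlap, but the change of -0.21 did not pass (edgeR adjusted p = 0.15). The 17 genes not called also included both eS30 genes (rps3001 -0.38, rps3002 -0.32), rps27 (-0.36), rps29 (-0.32), rpl31 (-0.26), rpl39 (-0.39) and rpl42 (-0.41). By promoter box, 20 of 20 genes with both boxes were lower (median -0.42), 45 of 55 with HomolD alone (-0.44), 9 of 13 with HomolE alone (-0.41) and 27 of 30 with neither (-0.48).

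At 48 h the change was as wide: 103 of 118 genes were lower and 0 higher, against 22.4% and 25.6% of all genes, with a median of -0.55 and a range of -1.11 to 0.05. This comparison shares its 0 h libraries with the 24 h one, so the 2 are not independent. Small subunit genes had 44 of 49 lower (median -0.54) and large subunit genes 59 of 69 (median -0.55). For 105 genes the 48 h libraries all lay below the 0 h libraries (30.1% of all genes). rpl1002 again changed most, with 552.5, 376.9 and 369 CPM at 48 h (-1.11 ± 0.15, edgeR adjusted p = 2.6e-05). rps2601 (SPAC806.03c, I:235533-236104), a gene for eS26 at the mRNA exit, had 630.1, 467.2 and 463.5 CPM at 48 h, against 975.6, 1036 and 976.1 CPM at 0 h (-0.94 ± 0.12, edgeR adjusted p = 1.59e-05). Its antisense row, which overlaps it, changed by -0.91. The uS11 gene rps1402 (SPBC18H10.13, II:1792312-1792936) had 748.5, 570.6 and 580.3 CPM at 48 h, against 1011, 1337 and 929.5 CPM at 0 h (-0.79 ± 0.14, edgeR adjusted p = 3.49e-04). For rpl802 the 48 h libraries held 529.6, 388.8 and 376 CPM (-0.78, edgeR adjusted p = 1.38e-04). In each of these genes replicate 1 at 48 h was the highest of its group and still below the 0 h libraries. GC-corrected offsets gave 96 lower genes at 24 h and 104 at 48 h, against 18.4% and 22.9% of all genes, with medians of -0.44 and -0.55. With GC- and length-corrected offsets the 48 h median was -0.95, while that of all genes shifted by -0.14.

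From 72 h on the levels lay closer to 0 h. At 72 h 8 genes were lower and 0 higher (5 small and 3 large subunit genes), against 5.57% and 10.2% of all genes, with a median of -0.28. An unadjusted p under 0.05 was reached by 66 members, and by 2080 of all 6664 genes. Same-numbered 0 h and 72 h libraries deviated together, and with the replicate number as a block 59 genes were called lower and 1 higher. The other 72 h values here come from the fit without a block. Its count was 0 without replicate 2, 4 without replicate 3 and 13 without replicate 1 of the 72 h group. It was 3 without replicate 1 and 2 without replicate 2 of the 0 h group. rps1502, a gene for uS19, had 938.7, 877.1 and 929.7 CPM at 72 h, against 1312, 1101 and 1194 CPM at 0 h (-0.39 ± 0.098, edgeR adjusted p = 0.0133). rps2601 (-0.45), rps1902 (-0.41), rpl1201 for uL11 (-0.39) and rpl2502 (-0.38) were also called. At 96 h the median was -0.22, with 0 genes lower and 1 higher, against 4.94% and 7.56% of all genes. An unadjusted p under 0.05 was reached by 28 members, and by 1807 of all 6664 genes. DESeq2 called 4 lower. A replicate block gave lower calls too, although same-numbered 0 h and 96 h libraries did not all deviate together (correlations -0.0727 to 0.166). The gene called higher was rps1401, with 489.8, 465.9 and 373.9 CPM at 96 h, against 332, 340.9 and 302.4 CPM at 0 h. Its groups did not overlap (0.45 ± 0.12, edgeR adjusted p = 0.0266), but the call was lost without replicate 1 or 2 of the 96 h group, without any library of the 0 h group, and with GC- and length-corrected offsets (0.28). aar2, which covers the whole of rps1401, changed by 0.36 (edgeR adjusted p = 0.0536).

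At 120 h of the time course edgeR called 0 of 118 genes, against 7.76% lower and 6.38% higher of all genes. DESeq2 called 1, and 2 had an unadjusted p under 0.05, as did 1801 of all 6664 genes. The median was -0.06. The 120 h depletion of the memory experiment likewise had 0 calls among 95 genes (0 at an unadjusted p under 0.05 and 0 by DESeq2), against 3.53% lower and 2.62% higher of all genes, with a median of 0.03. The difference between the 2 experiments' 120 h changes had a median of 0.11 over 94 shared genes. edgeR called 0 of these differences (0 at an unadjusted p under 0.05 and 0 by DESeq2), against 1.88% lower and 1.93% higher of 6528 genes.

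**Figure D2:**
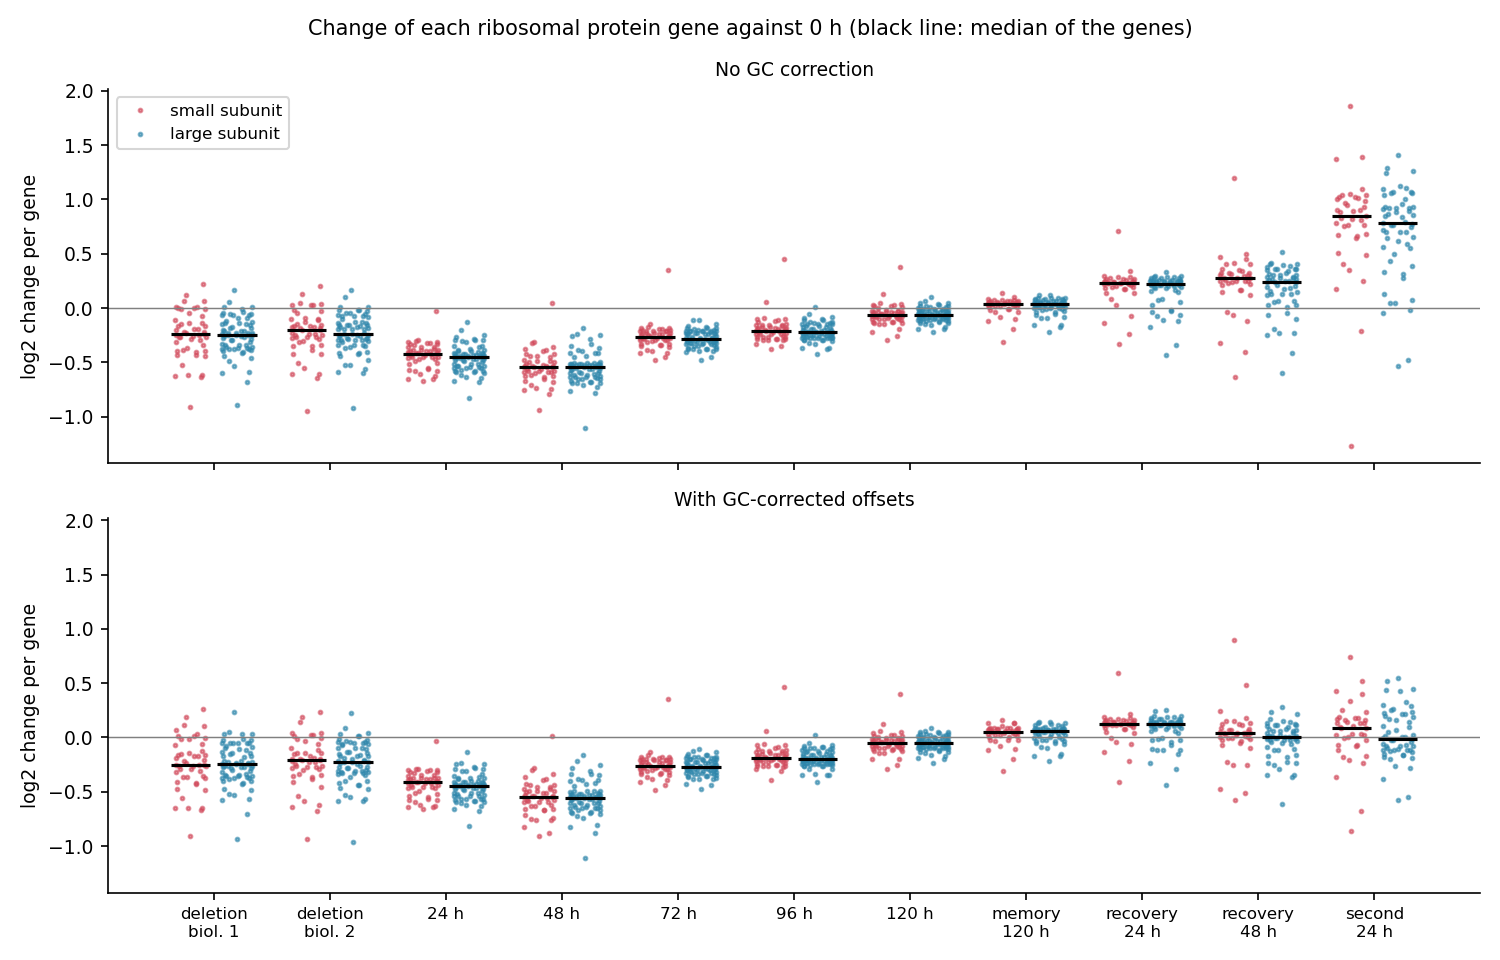
log2 change of each small and large subunit gene in every comparison against 0 h, without (top) and with (bottom) offsets corrected for GC content. Deletions and time course depletions are set against time course 0 h, memory groups against memory 0 h. Both subunits lie below 0 at 24 h and 48 h in both panels, while the second depletion is centred on 0.82 without and 0.02 with the correction.

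Per kilobase of exon, small subunit genes had a median of 1889 CPM in untreated time course cells and of 1395, 1265, 1474, 1627 and 1733 CPM after 24, 48, 72, 96 and 120 h, and large subunit genes 1724 CPM and then 1248, 1185, 1392, 1455 and 1647 CPM. The small subunit median was the higher in all 13 groups, and both followed the same course. Among members measured in all 13 groups, which leaves out those missing from the memory table, the highest mean levels per kilobase were those of rpl31 (eL31, 3097 CPM), rpl42 (eL42, 3074 CPM) and rps2402 (eS24, 2946 CPM), and the lowest those of rpl1603 (uL13, 69.8 CPM), rpl3402 (243 CPM) and rpl3002 (eL30, 262 CPM). rpl1603 overlaps apl1, and its annotated exons span 2640 bases, the longest among the members. At 24 h the correlation of the change with gene length was -0.07 with GC content -0.06 and with the level per kilobase at 0 h 0.316 across the members (Spearman, a description over genes of the same libraries).

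Copies of a family mostly moved together. Of 47 families with at least 2 copies, all copies were lower in 40 at 24 h and in 41 at 48 h, some copies in 6 and in 5, and none in 1 each time. With 101 and 103 of 118 genes lower at these times, families with all copies lower had to be frequent. No family had copies called in opposite directions in any comparison. Such calls could arise only where members were called both ways. That was the case in the second depletion, against untreated cells or recovery, and in the deletions against 120 h. The 53 pairs of copies had coding sequences 66.1% to 99.6% identical (median 88.2%), so that reads of the closest pairs may be split between them. At 0 h 17 pairs differed at least 2-fold per kilobase. The log2 ratio of copies had a median range of 0.18 over the 6 group means of the time course, where 7 pairs ranged over at least 0.3. Over the 5 group means of the memory experiment, which holds 34 of the pairs, the median range was 0.181. The widest there was that of the eS30 genes: the log2 ratio of rps3001 to rps3002 was -0.79 in untreated cells, -0.92 and -1.18 after 24 and 48 h of recovery, and -1.84 in the second depletion, a range of 1.06. The ratios of rpl1601 to rpl1603 (0.93) and of rps2201 to rps2202 (0.74) followed. These pairs ranged over 0.16, 0.26 and 0.27 in the time course, rps3002 and rpl1603 share reads with other genes, and the GC trend of the memory libraries reaches copies of unlike GC content. What part shared reads or GC content had in these ratios was not tested.

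**Figure D3:**
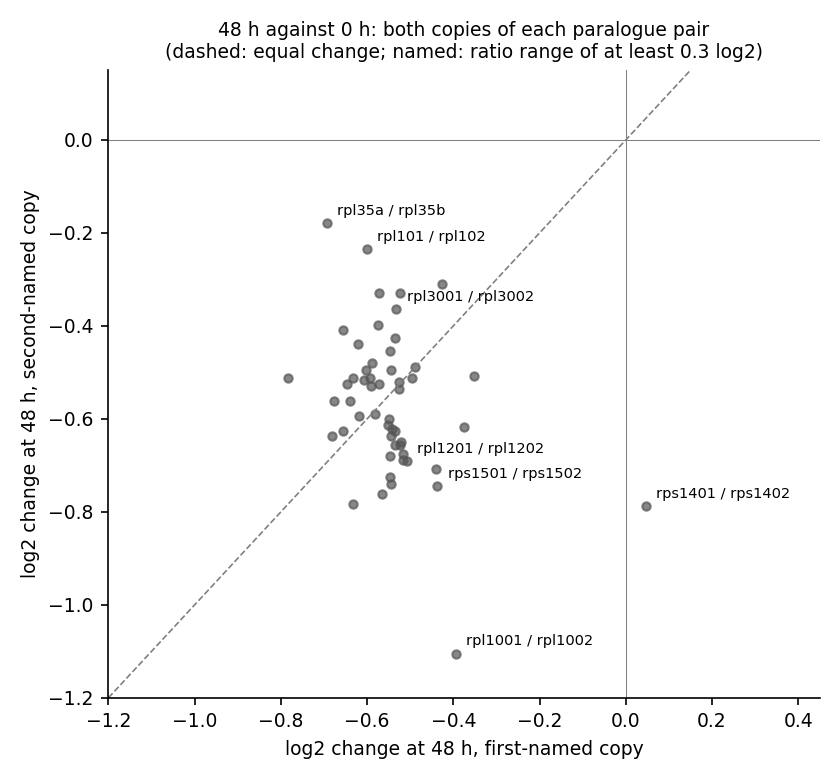
log2 change at 48 h against 0 h of the second-named copy (vertical axis) and the first-named copy (horizontal axis) of each paralogue pair, with the line of equal change and the 7 pairs whose ratio ranged over at least 0.3 in the time course named. Most pairs lie below 0 on both axes and near the line; rps1401 against rps1402 (0.05 and -0.79) and rpl1001 against rpl1002 (-0.40 and -1.11) lie away from it.

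Within the time course the uS11 pair had the widest range (0.822). rps1402 was called lower at 24 h and 48 h, while rps1401 overlapped its 0 h values at both times (-0.03 and 0.05). Per kilobase, the log2 ratio of rps1401 to rps1402 was -1.75 ± 0.21 (SD, n = 3) in untreated cells, -1.18 ± 0.18 and -0.93 ± 0.11 after 24 and 48 h, -1.0 ± 0.18 and -1.04 ± 0.26 after 72 and 96 h, and -1.25 ± 0.19 after 120 h. In the deletions it was -1.66 and -1.86. The group mean of the ratio thus stayed above its untreated value through 120 h, when neither copy was called. Reads of aar2 and rps1401 cannot be told apart, and aar2 changed by -0.03 at 24 h and 0.02 at 48 h; the coding sequences of the pair are 93.6% identical.

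The uL16 pair is 97.9% identical. rpl1001 (SPBC18E5.04, II:2081255-2082343) had 1796, 1766 and 1793 CPM at 24 h and 1853, 1586 and 1560 CPM at 48 h, against 2194, 2319 and 2057 CPM at 0 h. Its changes were -0.30 and -0.40 (edgeR adjusted p = 0.00986 and 8.96e-04), beside -0.83 and -1.11 for rpl1002, whose reads cannot be told apart from those of its antisense row. The log2 ratio of rpl1001 to rpl1002 was 1.06 ± 0.083 in untreated cells, 1.59 ± 0.13 and 1.78 ± 0.19 after 24 and 48 h, and then 1.30, 1.25 and 1.09 after 72, 96 and 120 h, so that it was back near its start by the last time. For eL33 the ratio moved towards the less abundant copy: rpl35a was lower at 48 h (-0.69, edgeR adjusted p = 8.8e-04), and the log2 ratio of rpl35a to rpl35b was 1.13 in untreated cells, 0.76 and 0.60 after 24 and 48 h, and 1.09 after 120 h. The uL11 genes rpl1201 and rpl1202 were the closest pair (99.6%). Their log2 ratio was -0.23 in untreated cells, 0.01 after 24 h and -0.30 after 120 h, a range of 0.303 over the time course.

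**Figure D4:**
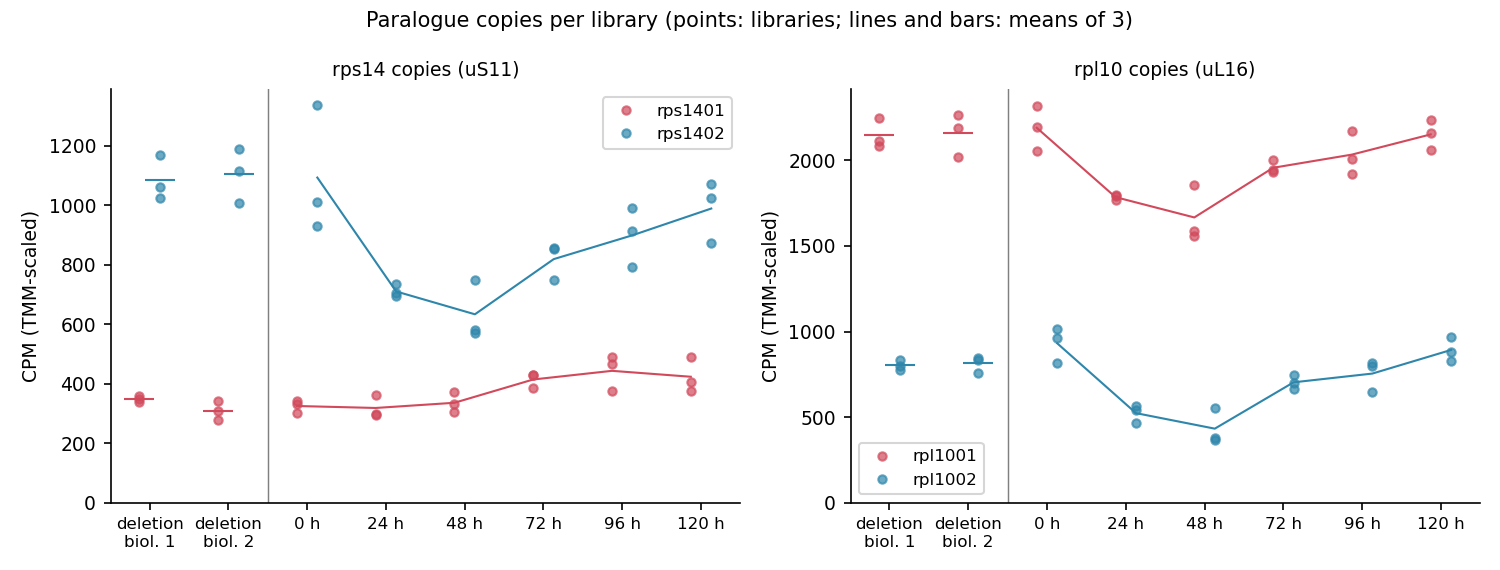
CPM per library of the uS11 copies rps1401 and rps1402 and the uL16 copies rpl1001 and rpl1002, in the deletion groups and then the time course. rps1402 and rpl1002 are lowest at 24 h and 48 h (rpl1002 369 to 562.9 CPM, against 815.8 to 1017 CPM at 0 h), whereas rps1401 shows no such dip (295.1 to 372.7 CPM, against 302.4 to 340.9 CPM at 0 h).

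Other genes of the translation apparatus were lower at the same times; the shares of all genes called were 17.2% lower and 20.5% higher at 24 h, and 22.4% and 25.6% at 48 h. Among 10 ribosomal proteins outside the name rule, 8 were lower at 24 h and 9 at 48 h (medians -0.40 and -0.54), among them the stalk genes rpp203 (-0.79 and -0.89), rpp101 (-0.61 and -0.74), rpp0 (-0.53 and -0.60) and rpp103 (-0.45 and -0.63). cpc2, which encodes the RACK1 protein of the small subunit, changed by -0.42 and -0.55. Among 13 translation factors 6 and 9 were lower, including the elongation factor 2 gene eft202 (-0.48 and -0.58) and the initiation factor 2 genes tif211 (-0.42 and -0.50) and tif213 (-0.41 and -0.50). Of 7 genes for RNA polymerase I and its factors, 4 and 5 were lower, with rpa12 (-0.78 and -0.99) and rpa49 (-0.62 and -0.51) furthest. Of 14 core stress genes, 8 were higher and 1 lower at both times: zym1, a metallothionein gene (3.86 and 5.87), the small heat shock gene hsp16 (2.86 and 3.45), tms1 (1.42 and 1.99) and the sulfiredoxin gene srx1 (1.05 and 1.94) rose, and pyp2, a phosphatase gene of the stress pathway (-0.58 and -0.59), fell. Of 17 growth signalling genes 5 were higher at 48 h, led by sfp1 (0.76) and gad8 (0.30), and 1 lower, tsc2 (-0.26); the share called higher is near that of all genes. Stress genes were higher in 6 of 14 cases at 72 h and 4 of 14 at 96 h, against 10.2% and 7.56% of all genes, with 1 lower each time. At 120 h the genes called in these lists were 2 stress genes that were higher and 2 that were lower. What part stress had in the ribosomal protein values was not tested.

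In the deletion cells the ribosomal protein genes were moderately lower than in untreated degron cells; strain and table differ together here and cannot be told apart. Biological replicate 1 had 55 of 118 genes lower and 0 higher (21 small and 34 large), against 15.6% and 17.2% of all 6581 genes, with a median of -0.25. Biological replicate 2 had 46 lower and 0 higher (19 small and 27 large), against 14.8% and 16.5%, with a median of -0.23. These counts were 31 and 30 without replicate 2 or 3 of the first deletion group, 29 and 20 without replicate 1 or 2 of the second, and 32 and 23 without replicate 2 of the 0 h group. The changes went with gene length: their correlation with exon length across members was 0.62 and 0.49 (Spearman), and the genes furthest below 0 were short, among them those of eS30, eL38, eS25, eS27 and eS28. rps3001 (SPAC19B12.04, I:4890186-4890829), an eS30 gene, had 216, 224.8 and 204.9 CPM in the first deletion group and 220.8, 167.6 and 243.6 CPM in the second, against 434, 431.1 and 321.8 CPM at 0 h (-0.91 ± 0.17, edgeR adjusted p = 0.0026, and -0.95, edgeR adjusted p = 0.00247). rpl3802 (SPAC30D11.12, I:1096764-1097387), an eL38 gene, had 207.4, 210.6 and 187.1 CPM and 223.1, 140.3 and 230.3 CPM, against 366.4, 380.3 and 350.2 CPM at 0 h (-0.89 ± 0.15, edgeR adjusted p = 9.41e-04, and -0.92, edgeR adjusted p = 8.38e-04). No deletion library of either gene reached the lowest 0 h library. rps2501 (-0.63 and -0.61), rps2802 (-0.62 and -0.56), rps27 (-0.62 and -0.60) and rps3002 (-0.63 and -0.64) were called as well. With GC- and length-corrected offsets 42 and 49 genes were lower and 3 and 1 higher.

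Against degron cells depleted for 120 h, the mean of both deletion groups had 44 genes lower and 2 higher, against 21.7% and 20.7% of all genes, with a median of -0.17. Strain and table differ together here as well. The correlation of the change with exon length across members was 0.51 (Spearman). rpl3802 was again lowest (-1.01 ± 0.12, edgeR adjusted p = 6.92e-05), with 406.8, 408.1 and 360.3 CPM at 120 h. The 2 higher genes encode uS3 at the mRNA entry and eL15. rps3 had 2381, 2209 and 2198 CPM in the first deletion group and 2245, 2195 and 2247 CPM in the second, against 2132, 1739 and 1629 CPM at 120 h (0.26 ± 0.081, edgeR adjusted p = 0.0217). rpl15 had 1458, 1398 and 1373 CPM and 1437, 1366 and 1426 CPM, against 1293, 1176 and 1090 CPM at 120 h (0.21 ± 0.067, edgeR adjusted p = 0.0216). In both genes every deletion library exceeded every 120 h library, and both calls were lost without replicate 2 or 3 of the 120 h group.

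In recovery the members lay slightly above untreated cells without passing the test. After 24 h of recovery edgeR called 0 of 95 (1 at an unadjusted p under 0.05; DESeq2 called 0 as well), against 2.11% lower and 0.925% higher of all 6485 genes, with a median of 0.23. After 48 h it called 0 (4 at an unadjusted p under 0.05 and 0 by DESeq2), against 1% lower and 1.42% higher, with a median of 0.25. Over all genes, 868 and 1046 had an unadjusted p under 0.05 after 24 and 48 h. All 3 recovery libraries lay above all untreated libraries for 70 genes at 24 h and 26 at 48 h, against 20.3% and 18.8% of all genes. With GC-corrected offsets the medians were 0.12 and 0.01, and without 1 library, replicate 2 at 24 h and replicate 3 at 48 h, they were 0.13 and 0.0054. GC- and length-corrected offsets gave medians of 0.26 and 0.12. Untreated memory libraries had GC correlations of -0.46 to -0.51, and replicate 3 of the 48 h recovery one of 0.627. Against 120 h of depletion, 24 h of recovery gave a median of 0.19 and 0 calls by edgeR (2 at an unadjusted p under 0.05 and 0 by DESeq2), where 2.45% of all genes were lower and 2.28% higher. Of all 6485 genes, 890 had an unadjusted p under 0.05 there.

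The second depletion differed most from untreated cells of its table, and its values moved with GC content. Of 95 genes 57 were higher and 2 lower, against 22.7% and 22% of all genes, with a median of 0.82; small subunit genes had 27 higher and 1 lower (median 0.85), large subunit genes 30 higher and 1 lower (median 0.78). With GC-corrected offsets 9 were higher and 8 lower, against 20.4% and 19.8%, and the median was 0.02. GC- and length-corrected offsets gave a median of 0.30. The members' median deviation from the table mean was -0.16, 1.32 and 0.25 in replicates 1, 2 and 3 of the second depletion, where the GC trend of the other genes gave -0.03, 1.19 and 0.27. When replicate 2 of the second depletion was left out, 6 genes were called and the median was 0.31, and when its replicate 1 was left out, 82. Leaving out untreated replicate 1, 2 or 3 gave 3, 5 and 6 calls in that order. A fit of only the compared groups gave 2 calls, both lower.

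**Figure D5:**
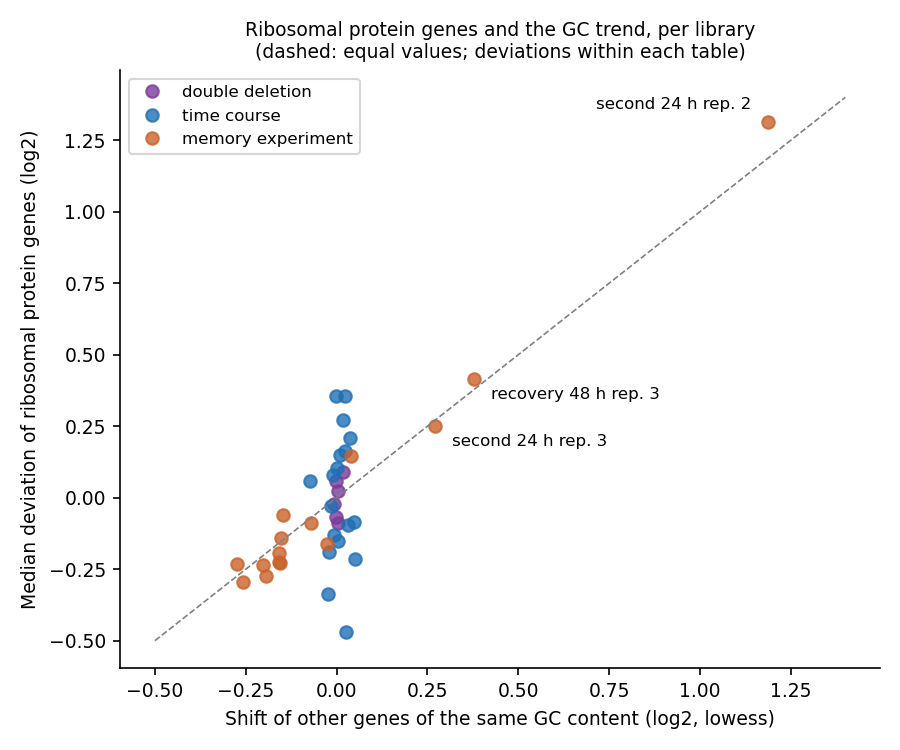
Median log2 deviation of the ribosomal protein genes in each library from the mean of its table (vertical axis) against the shift of other genes of the same GC content (horizontal axis), with a dashed line of equality and 3 libraries labelled. Memory libraries follow the line up to replicate 2 of the second depletion (1.19 and 1.32), while time course libraries spread vertically at a shift near 0.

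Single genes showed the same dependence. rpl802, with 46.8% GC, had 796.2, 3562 and 1192 CPM in the second depletion, against 676.5, 693.1 and 714.6 CPM in untreated cells (1.41 ± 0.42, edgeR adjusted p = 0.0181). Replicate 2 was far above the other two, although all 3 exceeded the untreated libraries; the change was 0.29 (edgeR adjusted p = 0.0346) with GC-corrected offsets and 0.52 without replicate 2. rps1902 had 598.1, 2716 and 911.1 CPM, against 530.7, 545.6 and 559.1 CPM in untreated cells; its change of 1.37 (edgeR adjusted p = 0.0226) was 0.33 (edgeR adjusted p = 0.0636) after correction. rps1401 had 148.8, 645 and 216.3 CPM, against 78.64, 80.7 and 118 CPM in untreated cells (1.86 ± 0.44, edgeR adjusted p = 0.00701), and kept a call with GC-corrected offsets (0.74, edgeR adjusted p = 0.00246); aar2 changed by 1.33. For rps1102, a gene for uS17, the change was 1.39 (edgeR adjusted p = 0.0144) and 0.52 (edgeR adjusted p = 0.0122) after correction. SPNCRNA.1015, which overlaps rps1102, changed by 1.38 without correction. Among genes closer to the average GC content, rpl3002 had 142.2, 251.7 and 163.8 CPM, against 119.7, 128.2 and 132.3 CPM in untreated cells, and its change was 0.55 with and without the correction (edgeR adjusted p = 0.018 without it). The 2 genes called lower were rps3001 and rpl102, whose GC contents are 34.3% and 37.3%. rps3001 had 237.8, 160.6 and 182.5 CPM in the second depletion, against 473.5, 451.7 and 480.5 CPM in untreated cells (-1.27 ± 0.30, edgeR adjusted p = 0.00655), and -0.86 (edgeR adjusted p = 0.00697) after correction. rpl102, the less abundant uL1 gene, had 202.3, 181.4 and 192 CPM, against 272.2, 276 and 286.9 CPM in untreated cells (-0.54 ± 0.10, edgeR adjusted p = 0.00274), and -0.55 after correction. In both, all 3 second depletion libraries lay below all untreated ones. The antisense row of rpl102, which overlaps it, changed by -0.53 without correction.

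Against the 24 h recovery that came before it, the second depletion had 2 genes higher (rps1102 1.17, rpl3002 0.57) and 2 lower (rps3001 -1.04, rpl102 -0.42), against 16.3% and 11.5% of all genes, with a median of 0.62. An unadjusted p under 0.05 was reached by 32 of 95 members, and by 2873 of all 6485 genes. Without replicate 2 of the second depletion the median was 0.07. Of 15 core stress genes 10 were higher and 1 lower in the same comparison, with all libraries in the fit and no GC correction. GC- and length-corrected offsets gave the members a median of 0.04. With GC-corrected offsets the members' median was -0.03, with 2 higher and 25 lower, against 17.3% and 15.2% of all genes. The number of calls was 78 without replicate 1 and 2 without replicate 2 of the second depletion, and 0, 2 and 1 without replicates 1, 2 and 3 of the recovery.

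The first and second 24 h depletions were compared directly by the difference of their changes, second against recovery minus first against 0 h. Of 94 shared genes 77 had a higher change in the second depletion and 0 a lower one, against 14.7% and 11.5% of 6528 genes, with a median difference of 1.11 (31 of 39 small subunit genes, median 1.13; 46 of 55 large, median 1.08). With GC-corrected offsets 41 were higher, against 12.8% of all genes, and the median was 0.48. GC- and length-corrected offsets gave a median of 0.77. Without replicate 2 of the second depletion 15 were higher and the median was 0.53, and with only the groups of the 2 effects in the fit 3 were higher. The largest differences were those of rpl802 (1.85 ± 0.43, edgeR adjusted p = 0.00452; 0.96 after correction, edgeR adjusted p = 0.00159), rps1902 (1.81, edgeR adjusted p = 0.00544), rpl1002 (1.68 ± 0.41, edgeR adjusted p = 0.0053) and rps1102 (1.57, edgeR adjusted p = 0.00742). rpl1002 had 1080, 3998 and 1545 CPM in the second depletion, against 1127, 1414 and 1168 CPM in recovery, with replicate 1 below the recovery libraries and replicate 2 far above them. rpl3002, whose value did not move with the correction, had a difference of 1.18 ± 0.24 (edgeR adjusted p = 0.0016).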

How the data were processed

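Polyadenylated RNA of 39 libraries was analysed from 3 tables of raw read counts per gene that the authors deposited, with coordinates in build ASM294v2 per the file headers; Trimmomatic and STAR are named in the submitters' processing notes, and the counting tool, its use of strand and its filters are not given in the sources used here. The tables hold 6711 (time course), 6544 (memory) and 6684 (deletion) genes, and 6 sample columns that match no labelled library were not used. The test was the robust quasi-likelihood F-test of edgeR 4.0.16 (R 4.3.3) after filterByExpr and TMM scaling, with Benjamini-Hochberg adjustment over all genes tested and a threshold of 0.05. All groups of a table entered 1 fit; deletion libraries were fitted with the 0 h and 120 h time course libraries over shared genes. GC content and exon length came from RefSeq ASM294v3 (6626 of 6745 identifiers matched, 99.5% of them sharing a gene end with the tables). GC-corrected offsets subtracted a lowess curve (span 0.3) of each library's log2 deviation on GC content, fitted without the members. CPM are scaled to TMM-adjusted totals, and levels between genes are per kilobase of exon.

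Alternatives were DESeq2 1.42.0 (Wald test and size factors), plain library totals, TMM without the members, no filter, a replicate block, GC and length offsets, only the compared groups, and each library left out. Same-numbered 0 h and 72 h libraries deviated together in every pair (correlations 0.161 to 0.175). The main test of this comparison holds no block, so the count with a replicate block is given beside it. In no other comparison did every pair exceed 0.1. No 2 libraries of a group agreed within sampling noise. For each comparison, up to 4 members with the largest fall and rise past the threshold with at least 5 CPM were named, with those called against the majority, the 3 highest and lowest levels and the 3 smallest changes at 24 h; rpl1001, rpl1202, rpl1601, rpl35a, rpl39, rpl44, rpl701, rps2201, rps2202 and rps29 were chosen after their values were seen. Members and lists were chosen with earlier results of these data known.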

Additional observations from a re-analysis of the deposited data

Results flagged for a closer look

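A test of the difference between the first and the second 24 h depletion set apart 77 of 94 ribosomal protein genes, all with the higher change in the second depletion. The same test called 14.7% of all 6528 genes higher and 11.5% lower. The member count changed with the GC correction and with 1 library, and the cause was not tested. The count was 41 once GC content was corrected for, where 12.8% of all genes were higher. Dropping the second depletion's replicate 2 cut it to 15, and a fit restricted to the compared groups cut it further. Among the named genes, the log2 difference of the changes was 1.85 for rpl802, 1.81 for rps1902, 1.68 for rpl1002 and 1.57 for rps1102. With GC-corrected offsets the differences were 0.96, 0.97, 0.88 and 0.86, and replicate 2 of the second depletion, the library with the strongest GC trend, was the highest of its group for each of these genes.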

How the results depend on the processing

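The 24 h, 48 h and deletion counts stayed within 1.5 times under every change of normalisation, test, filter, block or offset, and the median change of the members stayed below 0 in them throughout (-0.69 to -0.36 at 24 h, -0.95 to -0.45 at 48 h). With the replicate number as a block, called genes were 60 (59 lower, 1 higher) at 72 h, 20 (19 lower) at 96 h, 1 at 120 h and 27 (25 higher) in the second depletion against untreated cells; it moved no other count by over 1.5 times. With block and GC-corrected offsets these were 54 (53 lower), 7 (6 lower), 1 and 14 (8 lower, 6 higher). DESeq2 called 30 at 72 h, 5 at 96 h, 1 at 120 h and 20 (18 higher) in the second depletion against recovery. GC- and length-corrected offsets gave 91 at 72 h, 5 at 96 h and 1 at 120 h, and, in the second depletion, 26 (24 higher) against untreated cells and 7 (6 lower) against recovery. GC-corrected offsets gave 1 at 120 h, 17 (9 higher, 8 lower) in the second depletion against untreated cells, 27 (25 lower) against recovery, 26 with the block, and 41 in the difference of first and second depletion. Plain library totals gave 1 at 120 h, 35 (30 higher) in the second depletion against untreated cells and 1 against recovery; they shifted the median of all genes by -0.27 and -0.21 in these last 2, by -0.27 in the difference of depletions and by -0.11 in 24 h recovery against 120 h, and GC and length offsets shifted it by -0.14 at 48 h. With all 3 GC settings, 2 genes were called at 24 h of recovery, 1 at 48 h and 1 at 24 h of recovery against 120 h. Only the compared groups in the fit gave 1 at 120 h of the memory experiment, 3 at 24 h of recovery, 1 against 120 h, 2 in the second depletion against untreated cells, 0 against recovery and 3 in the difference of depletions. Without replicate 2 of the second depletion, an alternative chosen after seeing the data, 2 genes were called at 48 h of recovery. The cause of these changes was not tested.

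Leaving out each library in turn gave 67 to 97 calls at 24 h, 92 to 108 at 48 h, 0 to 13 at 72 h, 0 to 2 at 96 h, 0 to 1 at 120 h, 0 to 2 at 48 h of recovery, 3 to 82 in the second depletion against untreated cells, 0 to 78 against recovery, 30 to 57 and 20 to 51 in the deletions, 33 to 53 in the deletions against 120 h and 15 to 90 in the difference of depletions. The change of rps1401 at 24 h, which did not pass the test, was 0.0497 with plain totals and lay between -0.133 and 0.0165 as libraries were left out, above 0 without replicate 2 of the 0 h group or replicate 1 or 3 of the 24 h group. Few other genes share the members' GC content, which limits the GC correction.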
